A study of Homo sapiens with 12 samples.

Results

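The genes described here are the targets and handlers of doxorubicin, an anthracycline: the type II topoisomerases TOP2A and TOP2B, the type I enzymes TOP1 and TOP1MT, the repair enzyme TDP2, the efflux pumps ABCB1, ABCC1 and ABCG2, and the carbonyl reductases CBR1 and CBR3. They were chosen by name for their known role. Of the 10 genes named, 9 were found among the 17013 genes of the expression table by matching Ensembl identifiers to symbols, and ABCB1 was not analysed here. All 9 lay far above the lower edge of the table, so none entered through a single high group. The mRNA-seq libraries came from HCC1806, a human triple-negative breast cancer cell line, with 3 libraries in each of 4 groups and 16759025 to 19302248 reads per library. The question of the design was how loss of MLK4, a mixed-lineage kinase encoded by MAP3K21, changes the response of these cells to doxorubicin.

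The siNT vehicle group received a non-targeting control siRNA and DMSO, although the methods call these cells untreated. The siNT doxorubicin group received the same siRNA and, starting 24 h after transfection, 1 μM doxorubicin for 24 h. The siMLK4 vehicle and siMLK4 doxorubicin groups received a pool of 4 siRNAs against MLK4 and the same additions. The library titles mark both vehicle groups as t0 and both doxorubicin groups as t24. Whether vehicle cells were harvested together with the treated cells is not stated. If they were harvested earlier, drug and time in culture cannot be told apart. No group was left without transfection, and the experiment rests on 1 cell line and 1 siRNA pool, so an effect of MLK4 loss and an off-target effect of the pool cannot be told apart. Transfections were done in triplicate, and whether these were separate experiments is not stated for the mRNA-seq, so the p-values measure the spread between these libraries, which may be technical. Values are normalized reads, meaning reads divided by the size factor of the library. Fold changes are differences of the variance-stabilized log2 values, a scale that understates the change of genes with few reads. These were tested with limma, with p-values adjusted over all 17013 genes. A gene was called when its adjusted p was under 0.01 and its log2 fold change over 0.75 in either direction. "Rose" and "fell" are used below for an adjusted p under 0.05.

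Topoisomerases relieve the twist that builds up in DNA during replication and transcription by cutting the strands, letting them pass and sealing them again. Doxorubicin traps type II enzymes on the cut DNA, which leaves double-strand breaks, and TDP2 removes the trapped protein from the DNA end. ABC transporters such as ABCB1, ABCC1 and ABCG2 pump anthracyclines out of the cell, and the carbonyl reductases turn them into alcohols such as doxorubicinol, which are less toxic to tumour cells.

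The labels were checked first. MAP3K21 (chr1:233327724-233385148, GRCh38, plus strand) had 553, 669.6 and 674 normalized reads with siNT and vehicle and 758, 856 and 772 with siNT and doxorubicin. In siMLK4 cells it had 103, 94.7 and 88.65 with vehicle and 113, 138 and 94.35 with doxorubicin. The siMLK4 libraries held 0.151 and 0.145 of the siNT level with vehicle and with doxorubicin, and the groups did not overlap. The line was also checked against markers. Of 5 epithelial genes, KRT8 had the most normalized reads (not per length) in 3 groups and KRT5 in siMLK4 vehicle cells, and the sum of the 5 ran from 61431 to 67559 normalized reads in siNT vehicle, from 55648 to 64568 in siNT doxorubicin, from 69494 to 75518 in siMLK4 vehicle and from 35588 to 47497 in siMLK4 doxorubicin libraries. The members did not move alike. In siMLK4 vehicle cells EPCAM (0.644 of siNT, adjusted p = 0.0058) and KRT17 (0.632, adjusted p = 0.0069) were lower and KRT5 was 1.55-fold higher (adjusted p = 0.0074). In siMLK4 doxorubicin cells KRT17 (0.563 of siNT, adjusted p = 0.0019), EPCAM (0.646, adjusted p = 0.0056) and KRT8 (0.641, adjusted p = 0.012) were lower. There KRT5 (0.798, adjusted p = 0.14) and CDH1 (1.24, adjusted p = 0.12) did not pass. Upon doxorubicin KRT5 fell to 0.422 of vehicle in siNT and 0.218 in siMLK4 cells and was called in both, while KRT8 rose 1.35-fold in siNT cells (adjusted p = 0.04). ESR1, the estrogen receptor, had 36.0 to 148 normalized reads, and PGR, the progesterone receptor, had 0 in all 6 vehicle libraries and 7.26 to 18.5 in the doxorubicin libraries. ERBB2, the gene of HER2, had 1272 to 2027. Of markers of other cells, the leukocyte gene PTPRC had 0 to 7.86 normalized reads in the vehicle and 11.9 to 21.2 in the doxorubicin libraries, and rose with both siRNAs (adjusted p = 0.0027 in siNT and 0.00018 in siMLK4 cells). The fibroblast gene COL1A1 had 254 to 321 normalized reads in siNT and 344 to 577 in siMLK4 libraries, and was 1.85-fold higher in siMLK4 cells with vehicle (adjusted p = 0.00041) and 1.52-fold with doxorubicin (adjusted p = 0.0075). PECAM1 and COL1A2 were not analysed here. The part of these markers, and of the epithelial sum, which was lowest in siMLK4 doxorubicin libraries, in the results below was not tested. In bulk RNA, fewer cells of a kind and less RNA per cell cannot be told apart.

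Upon doxorubicin, the mitochondrial topoisomerase gene TOP1MT fell most of the 9 genes, with 0.224 of the vehicle level in siNT and 0.17 in siMLK4 cells. CBR3 rose 2.17-fold in siNT and 1.58-fold in siMLK4 cells, and TOP1 rose 1.63-fold and 1.4-fold. TOP2B, ABCC1, ABCG2 and CBR1 fell in both, to between 0.443 and 0.761 of vehicle. TOP2A and TDP2 passed no test upon doxorubicin in siNT cells, although TOP2A did with scaling by library totals (0.32, adjusted p = 0.011). Under that scaling the median log2 fold change of all genes was 0.18. The plot of normalized reads by library shows all 9 genes.

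**Figure D1:**
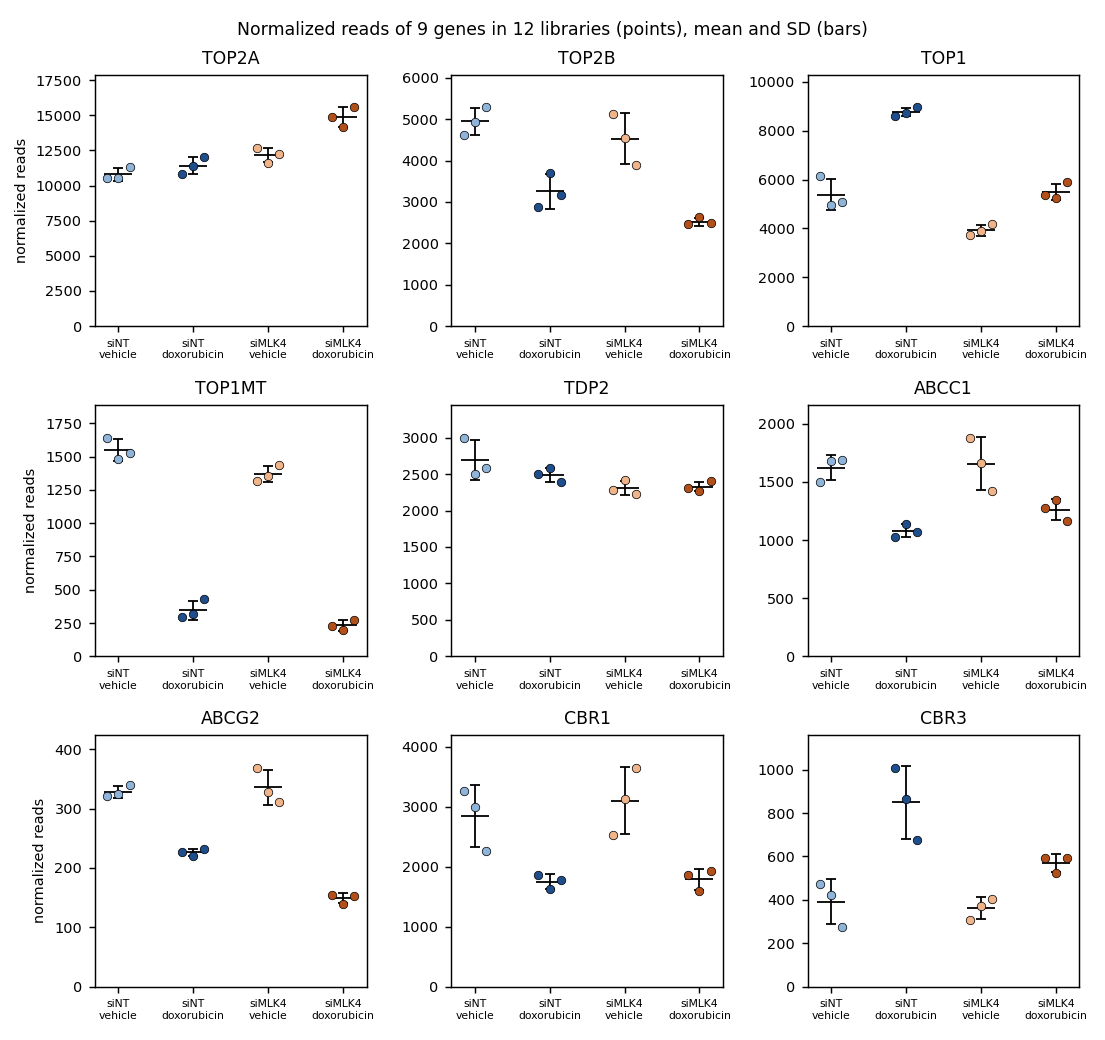
Normalized reads (vertical axes, from 0) of the 9 genes in the 12 libraries. Points are single libraries, long bars are group means and error bars are the SD (n = 3). TOP1MT lies between 1316 and 1643 in the vehicle libraries and between 194 and 428 in the doxorubicin libraries.

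By the stricter rule, doxorubicin called 1 of the 9 genes higher (CBR3) and 1 lower (TOP1MT) in siNT cells, against a background of 22.7% of all genes called (12.1% higher and 10.6% lower). At an adjusted p under 0.05, 2 of 9 rose and 5 fell, where 57.3% of all genes passed. In siMLK4 cells none was called higher and 4 were called lower (TOP2B, TOP1MT, ABCG2 and CBR1), with 23.2% of all genes called (12.6% higher and 10.6% lower). There 3 of 9 rose and 5 fell at an adjusted p under 0.05, with 57.9% of all genes passing. Over the 9 genes the median log2 fold change was -0.45 in siNT and -0.37 in siMLK4 cells, beside 0.0046 and 0.018 over all genes. In siNT cells, 7 of 9 genes passing was a larger share than 57.3%, but 9 genes are few and no test of the list was made.

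TOP2A encodes the type II topoisomerase of dividing cells and is the main target of doxorubicin (chr17:40388525-40417896, minus strand). It had 10538, 10518 and 11315 normalized reads in siNT vehicle and 10806, 11395 and 12032 in siNT doxorubicin libraries. In siMLK4 cells the values were 12639, 11624 and 12263 with vehicle and 14856, 14153 and 15565 with doxorubicin. The 3 siMLK4 doxorubicin libraries were above all 9 others, while the siNT groups overlapped. Upon doxorubicin, TOP2A gave a log2 fold change of 0.08 (SE 0.10, adjusted p = 0.51) in siNT cells and 0.29 (SE 0.10, adjusted p = 0.023) in siMLK4 cells. The latter test was lost without siMLK4 vehicle replicate 2, siMLK4 doxorubicin replicate 1 or siMLK4 doxorubicin replicate 3, with an adjusted p of up to 0.082. Between siMLK4 and siNT cells treated with doxorubicin, TOP2A was higher by a log2 fold change of 0.38 (SE 0.10, adjusted p = 0.012), which rose to an adjusted p of up to 0.052 without siNT doxorubicin replicate 1 or siMLK4 doxorubicin replicate 1. The difference between the responses themselves was 0.21 (SE 0.14, adjusted p = 0.56).

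The TOP2A promoter is shown because its transcription follows the cell cycle, and the genes of the late cell cycle are set beside it below. The window of 300 bases around the start (RefSeq, GRCh38.p14, chr17:40417847-40418146, minus strand, 5′ to 3′) is printed with matches to 2 motifs in capitals, searched on both strands.
TOP2A promoter: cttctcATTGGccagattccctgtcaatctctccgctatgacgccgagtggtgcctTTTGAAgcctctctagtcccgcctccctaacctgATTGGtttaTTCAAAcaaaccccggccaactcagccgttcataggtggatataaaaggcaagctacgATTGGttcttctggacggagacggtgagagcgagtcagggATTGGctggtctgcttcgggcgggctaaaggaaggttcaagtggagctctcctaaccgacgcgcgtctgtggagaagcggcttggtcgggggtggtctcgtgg
The CCAAT box, bound by NF-Y, was searched as CCAAT or ATTGG and matched 4 times. Any match was held by 34.61% of 35116 promoters of the same length, and 4 or more by 0.991%. The cell cycle homology region, an element of genes that are switched on late in the cell cycle, was searched as TTTGAA or TTCAAA and matched 2 times, where 15.16% of promoters held any match and 2.272% at least 2. These are matches of letters, and binding was not measured.

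TOP2B encodes the type II topoisomerase that is also made in cells that do not divide (chr3:25597978-25664909, minus strand). The siNT libraries had 4621, 4931 and 5284 normalized reads with vehicle and 2886, 3707 and 3169 with doxorubicin. The siMLK4 libraries had 5129.8, 4538 and 3904 with vehicle and 2457, 2632 and 2480.4 with doxorubicin. Every doxorubicin library was below every vehicle library of its siRNA. TOP2B fell by 0.60 on the log2 scale in siNT cells (SE 0.12, adjusted p = 0.00077) and by 0.82 in siMLK4 cells (SE 0.12, adjusted p = 5.9e-05), where it was called. That call was lost without siMLK4 vehicle replicate 1 (-0.73) and with scaling by library totals (-0.64), since the fold change then missed 0.75. TOP2A and TOP2B, both type II enzymes, therefore gave opposite signs in siMLK4 cells, while in siNT cells TOP2B fell and TOP2A passed no test with the authors' size factors.

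TOP1 encodes the nuclear type I topoisomerase, the target of camptothecins (chr20:41028822-41124487, plus strand). It had 6126, 4939 and 5094 normalized reads in siNT vehicle and 8619, 8739 and 8954 in siNT doxorubicin libraries. With siMLK4 it had 3716, 3909 and 4163 with vehicle and 5359, 5261 and 5884 with doxorubicin. The siMLK4 vehicle libraries were the lowest of all and the siNT doxorubicin libraries the highest, without overlap between the groups of any of the 4 comparisons. TOP1 rose by a log2 fold change of 0.70 (SE 0.11, adjusted p = 7e-05) upon doxorubicin in siNT cells and of 0.48 (SE 0.11, adjusted p = 0.0015) in siMLK4 cells. The first missed the fold threshold of the call, which it passed with scaling by library totals (0.94) and without siNT vehicle replicate 1 (0.80). Of the 50-base stretches of its transcripts, 2.6% also occur in other genes, chiefly the pseudogene TOP1P1.

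TOP1MT encodes the type I topoisomerase of mitochondrial DNA. It had 1643, 1481 and 1523 normalized reads in siNT vehicle and 294, 319.6 and 428 in siNT doxorubicin libraries. In siMLK4 cells it had 1316, 1352 and 1439 with vehicle and 231, 194 and 270.4 with doxorubicin. The gap between the vehicle and doxorubicin libraries was several times the spread within any group. TOP1MT fell by 2.02 on the log2 scale in siNT cells (SE 0.13, adjusted p = 7e-08) and gave -2.33 in siMLK4 cells (SE 0.13, adjusted p = 3.8e-08). Of all 17013 genes, 0.78% changed more in siNT and 0.34% more in siMLK4 cells, in either direction. Nuclear and mitochondrial type I enzymes thus moved in opposite directions upon doxorubicin, TOP1 up and TOP1MT down in both siRNA groups.

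TDP2 encodes the phosphodiesterase that frees DNA ends from trapped type II topoisomerases (chr6:24649979-24666930, minus strand). Its libraries had 3001, 2496 and 2583 normalized reads in siNT vehicle, and 2501, 2585 and 2389.7 in siNT doxorubicin. In siMLK4 vehicle it had 2276, 2419 and 2234, and in siMLK4 doxorubicin 2313, 2275 and 2399.7. The groups overlapped in 3 of the 4 comparisons, and the exception was siMLK4 vehicle, whose 3 libraries were below those of siNT vehicle. Upon doxorubicin TDP2 gave a log2 fold change of -0.11 (SE 0.10, adjusted p = 0.37) in siNT and 0.01 (SE 0.10, adjusted p = 0.92) in siMLK4 cells. The siNT value turned to 0.13 with scaling by library totals. Of all genes, 85.65% changed more than TDP2 in siNT and 98.36% in siMLK4 cells.

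TDP2 shares its start region with ACOT13, an acyl-CoA thioesterase gene on the opposite strand, and the stretch is printed because ACOT13 fell upon doxorubicin where TDP2 passed no test. The window is chr6:24666850-24667149 (RefSeq, GRCh38.p14, minus strand, 5′ to 3′ of TDP2), with the 104 bases between the starts of both genes in capitals.
TDP2 promoter: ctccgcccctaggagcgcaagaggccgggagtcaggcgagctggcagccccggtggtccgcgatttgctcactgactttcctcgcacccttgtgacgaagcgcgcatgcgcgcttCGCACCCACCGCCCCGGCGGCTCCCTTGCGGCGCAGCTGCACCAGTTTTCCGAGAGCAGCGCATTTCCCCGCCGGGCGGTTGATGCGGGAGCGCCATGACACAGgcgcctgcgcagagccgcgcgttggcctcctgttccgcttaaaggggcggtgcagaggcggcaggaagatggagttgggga
ACOT13 had 753, 569 and 534 normalized reads in siNT vehicle libraries and 369, 302 and 352 in siNT doxorubicin libraries. It fell by 0.76 on the log2 scale (SE 0.15, adjusted p = 0.00051) in siNT cells and by 0.62 (SE 0.15, adjusted p = 0.0024) in siMLK4 cells, where TDP2 gave the values above. The difference between the 2 genes was not tested.

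ABCC1 encodes MRP1, a pump that exports anthracyclines and glutathione conjugates (chr16:15949138-16143257, plus strand). It had 1502, 1681 and 1687 normalized reads in siNT vehicle and 1029, 1139 and 1068 in siNT doxorubicin libraries. The siMLK4 libraries had 1882, 1662 and 1426 with vehicle and 1276, 1341 and 1165 with doxorubicin. Vehicle and doxorubicin did not overlap with either siRNA. ABCC1 fell by 0.57 on the log2 scale in siNT cells (SE 0.11, adjusted p = 0.00066) and by 0.37 in siMLK4 cells (SE 0.11, adjusted p = 0.011). The second test was lost without siMLK4 vehicle replicate 1 (adjusted p = 0.058) and with library totals (-0.19, adjusted p = 0.18). With library totals the falls in siNT cells were smaller but passed, at -0.33 for ABCC1 (adjusted p = 0.028), -0.25 for ABCG2 (adjusted p = 0.048), -0.36 for TOP2B (adjusted p = 0.024) and -0.43 for CBR1 (adjusted p = 0.021).

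ABCG2 encodes BCRP, a pump of many planar drugs (chr4:88090150-88231628, minus strand). It had 321, 325 and 339 normalized reads in siNT vehicle and 227, 219.9 and 231 in siNT doxorubicin libraries. With siMLK4 it had 369, 328 and 310.3 with vehicle and 154, 139 and 152 with doxorubicin. The 2 vehicle groups overlapped, while the siMLK4 doxorubicin libraries were below all others. ABCG2 fell by 0.45 on the log2 scale in siNT cells (SE 0.10, adjusted p = 0.0014) and by 0.96 in siMLK4 cells (SE 0.10, adjusted p = 2.8e-06), and the second was called under every alternative tried except an adjusted p under 0.05 with a fold threshold of 1. The difference between these responses was -0.50 (SE 0.14), with an unadjusted p of 0.0028 and an adjusted p of 0.094, so that it did not pass the test over all genes.

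CBR1 encodes the main cytosolic carbonyl reductase of anthracyclines (chr21:36069941-36073166, plus strand). It had 3268, 2992 and 2262 normalized reads in siNT vehicle and 1856, 1622 and 1777 in siNT doxorubicin libraries. The siMLK4 libraries had 2533, 3129 and 3651 with vehicle and 1857, 1588 and 1925 with doxorubicin. The vehicle libraries spread widely, and all 6 stayed above all 6 doxorubicin libraries. CBR1 fell by 0.67 on the log2 scale in siNT cells (SE 0.15, adjusted p = 0.0018) and by 0.77 in siMLK4 cells (SE 0.15, adjusted p = 0.00064). These lay on either side of the fold threshold. Without siNT vehicle replicate 3 the siNT value was called (-0.82), and the siMLK4 call was lost without siMLK4 vehicle replicate 3 (-0.64), without siMLK4 doxorubicin replicate 2 (-0.68) and with library totals (-0.58). CBR1 shares 13.2% of its 50-base stretches with other annotated genes, and how reads were assigned there is uncertain.

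CBR3, the neighbouring paralog on the same chromosome (chr21:36135079-36146562, plus strand), is a carbonyl reductase of lower activity towards most substrates. It had 474, 424 and 275 normalized reads in siNT vehicle and 1009, 866 and 674 in siNT doxorubicin libraries. In siMLK4 cells it had 306, 372 and 404 with vehicle and 593, 523 and 593 with doxorubicin. The groups did not overlap upon doxorubicin with either siRNA. CBR3 rose by a log2 fold change of 1.04 (SE 0.18, adjusted p = 0.00019) in siNT cells, where it was called, and of 0.60 (SE 0.18, adjusted p = 0.0096) in siMLK4 cells. The siMLK4 value reached the call with library totals (0.77). The 2 reductase genes thus moved in opposite directions upon doxorubicin in both siRNA groups.

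**Figure D2:**
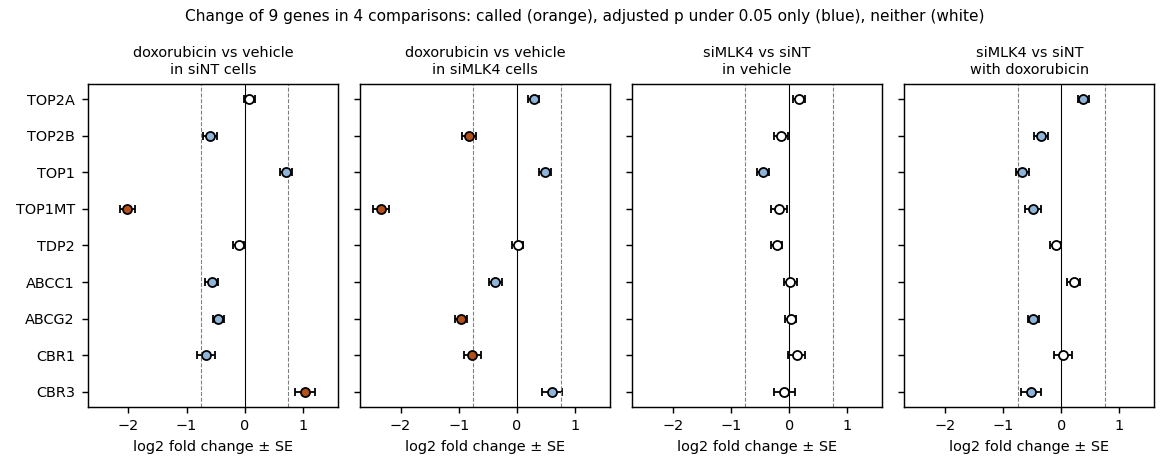
Log2 fold change (horizontal axis) with its SE from limma for the 9 genes in 4 comparisons, each over 3 libraries a group. Orange points were called, blue points had an adjusted p under 0.05 only, white points neither, and dashed lines mark 0.75 in either direction. TOP1MT lies at -2.02 and -2.33 upon doxorubicin, and the knock-down panels hold no orange point.

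The knock-down comparisons gave fewer calls than doxorubicin. With vehicle, none of the 9 genes was called between siMLK4 and siNT cells, with 5.65% of all genes called, and 1 of 9 (TOP1, lower) passed at an adjusted p under 0.05, with 25.8% of all genes passing. With library totals TOP2A passed there too (0.32, adjusted p = 0.026), where the median of all genes was 0.11. With doxorubicin, none was called, with 5.58% of all genes called. There 6 of 9 passed at an adjusted p under 0.05, TOP2A higher and TOP2B, TOP1, TOP1MT, ABCG2 and CBR3 lower, beside 24.8% of all genes (12.7% higher and 12.1% lower). The median of the 9 genes was -0.08 with vehicle and -0.35 with doxorubicin, beside 0.012 and 0.023 over all genes. These comparisons share their libraries with the drug comparisons above.

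TOP1 was the 1 gene of the 9 that passed under both conditions. It was lower in siMLK4 cells with vehicle (-0.44 on the log2 scale, SE 0.11, adjusted p = 0.0071) and with doxorubicin (-0.67, SE 0.11, adjusted p = 0.00048), which is 0.73 and 0.627 of the siNT level. ABCG2 gave 0.03 (SE 0.10, adjusted p = 0.88) with vehicle and -0.48 (SE 0.10, adjusted p = 0.003) with doxorubicin. TOP1MT gave -0.17 (adjusted p = 0.38) and -0.49 (adjusted p = 0.015) by limma, and the latter was lost without siNT doxorubicin replicate 3, siMLK4 doxorubicin replicate 1 or siMLK4 doxorubicin replicate 2 (adjusted p of up to 0.08). TOP2B with doxorubicin was at -0.35 (SE 0.12, adjusted p = 0.047), and CBR3 at -0.52 (SE 0.18, adjusted p = 0.043). Both were near the threshold and were lost without siNT vehicle replicate 2, siNT doxorubicin replicate 2, siMLK4 vehicle replicate 2 or any siMLK4 doxorubicin library. TOP2B was also lost without siNT doxorubicin replicate 3 and CBR3 without siNT doxorubicin replicate 1, with adjusted p-values of up to 0.19 and 0.16. With TMM scaling their adjusted p-values were 0.059 and 0.051, and with library totals 0.13 and 0.077. With the replicate number as a block, TOP2B was at an adjusted p of 0.058. TDP2, ABCC1 and CBR1 passed neither knock-down test, with log2 fold changes from -0.21 to 0.21.

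For the interaction, the difference between both drug responses, none of the 9 genes was called by limma, where 0.276% of all genes were, and none passed at an adjusted p under 0.05, where 1.2% did. The 47 calls behind the 0.276% depended on single libraries, with 0 left without siMLK4 doxorubicin replicate 1. At an unadjusted p under 0.05, 1 of the 9 (ABCG2) passed, beside 2469 of all genes. The 9 values ran from -0.50 (ABCG2) to 0.21 (TOP2A), with a median of -0.22 beside 0.012 over all genes. None of the 9 genes was thus shown to respond differently to doxorubicin after MLK4 knock-down.

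The 4 siRNAs of the pool are shown because a seed of an siRNA can also lower other mRNAs through their 3′UTRs. Capitals mark the bases that a seed site would hold (bases 12 to 18 of the strand given here, which is the strand matching the mRNA).
MLK4-targeting siRNA #1 with a seed site in 27.5% of genes: ggaaagaugcuCAGAGAGauu
MLK4-targeting siRNA #2 with a seed site in 15.9% of genes: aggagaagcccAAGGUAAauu
MLK4-targeting siRNA #3 with a seed site in 24.0% of genes: agaagaaacgaGAGGGAAuuu
MLK4-targeting siRNA #4 with a seed site in 30.5% of genes: agaacagauugCAAAGAAauu
Each matched MAP3K21 over 19 bases and no other annotated gene. The shares of genes are of the 13587 with an annotated 3′UTR. Sites were sought in any annotated 3′UTR of a gene. TOP2B held sites for 3 of the 4 siRNAs (#1, #2 and #4), TOP1 and CBR1 for 2 (#1 and #4), and TOP1MT (#3), ABCC1 (#1) and ABCG2 (#1) for 1. The site of TOP1MT and that of CBR1 for #1 were not in the longest 3′UTR of the gene. TOP2A, TDP2 and CBR3 held none. Of all genes, 41.8% held sites for none of the 4, 30.4% for 1, 18.1% for 2, 7.6% for 3 and 2.2% for 4. Of the 6 genes with sites, 1 passed as lower in siMLK4 cells with vehicle (TOP1) and 4 with doxorubicin (TOP2B, TOP1, TOP1MT and ABCG2), where 13.0% and 12.1% of all genes passed as lower. Of the 3 without, CBR3 passed as lower with doxorubicin. The part of seed sites in these values was not tested.

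Levels between genes were compared as normalized reads per kilobase of exon. TOP2A was highest in all 4 groups, at 1693 ± 71.3 (SD, n = 3) in siNT vehicle and 2331 ± 111 in siMLK4 doxorubicin cells. ABCG2 was lowest in all 4, at 58.6 ± 1.72 and 26.5 ± 1.47 in the same groups. In siNT vehicle cells the order after TOP2A was CBR1 (1159 ± 212), TDP2 (905 ± 90.8), TOP1 (532 ± 63.7), CBR3 (392 ± 104), TOP2B (265 ± 17.8), TOP1MT (241 ± 13.0) and ABCC1 (186 ± 12.05). The libraries of CBR1 and TDP2, of CBR3 and TOP2B, and of TOP2B and TOP1MT overlapped there, and the other neighbours did not. In siMLK4 vehicle cells the order was the same, and the neighbours that overlapped were TOP1 and CBR3, TOP2B and TOP1MT, and TOP1MT and ABCC1. With doxorubicin in siNT cells TOP1 (866 ± 16.7), CBR3 (851 ± 168) and TDP2 (837 ± 32.8) came next to TOP2A with overlapping neighbours, CBR1 was below TDP2 (715 ± 48.7), and TOP1MT (54.1 ± 11.04) to the place above ABCG2. In siMLK4 doxorubicin cells TDP2 (782 ± 21.5) and CBR1 (731 ± 72.7) overlapped, as did CBR3 (571 ± 40.6) and TOP1 (543 ± 33.1), and ABCC1 (144 ± 10.2) and TOP2B (135 ± 5.10). With the longest transcript in place of all exons, 17 of the 36 ranks moved, among them TOP1MT to rank 4 in siNT vehicle, while TOP2A and ABCG2 kept the ends of the order.

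Other genes of the same pathways were followed as 5 lists. The first held partners of topoisomerases, the type IA enzymes TOP3A and TOP3B and the genes RMI1, RMI2 and BLM, whose products work with that of TOP3A to untangle recombined DNA. Upon doxorubicin 4 of these 5 rose and 1, the helicase BLM, fell, with each siRNA (-0.48 and -0.53). Called were 1 in siNT and 4 in siMLK4 cells, all higher. Over all genes, 57.3% and 57.9% passed and 22.7% and 23.2% were called (12.1% and 12.6% as higher). RMI2 rose in siNT cells from 284 ± 17.2 to 783 ± 114 normalized reads (log2 fold change 1.31, SE 0.14, adjusted p = 2.9e-06) and by 1.05 in siMLK4 cells, and RMI1 was called at 0.88 in siMLK4 cells. The list medians were 0.69 and 0.82, beside 0.0046 and 0.018 over all genes. The type IA enzymes thus rose with TOP1, while TOP2B and TOP1MT fell.

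Of 7 genes that repair trapped topoisomerases and the breaks they leave, 1 rose and 1 fell in siNT cells, and 1 rose and 2 fell in siMLK4 cells, which is below the 57.3% and 57.9% of all genes that passed. NBN, a subunit of the MRN complex that binds broken ends, fell from 2148 ± 184 to 653 ± 115 normalized reads in siNT cells (-1.65, SE 0.15, adjusted p = 9.5e-07) and by 1.68 in siMLK4 cells. Its partner MRE11 passed no test (-0.18 and -0.09). RAD50 passed none either (-0.24 and -0.17), at a low count of 39.4 ± 2.73 normalized reads in siNT vehicle cells, where this scale understates change. Its ratios of means were 0.709 and 0.771. Per kilobase of exon RAD50 had 3.73 in siNT vehicle cells, beside 133 for MRE11 and 111 for NBN. How reads were assigned to RAD50 was not tested. SPRTN, a protease of proteins crosslinked to DNA, rose by 0.58 in siNT and 0.86 in siMLK4 cells and was called in the latter. TDP1, which frees trapped TOP1, was at -0.17 (adjusted p = 0.16) in siNT and -0.27 (adjusted p = 0.033) in siMLK4 cells by limma. The list medians were -0.17 and -0.09, beside 0.0046 and 0.018 over all genes.

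Of 9 further transporters in the table, 2 rose and 2 fell in siNT cells, and 1 rose and 2 fell in siMLK4 cells, again below the 57.3% and 57.9% of all genes that passed. ABCC2, the pump MRP2, fell from 6446 ± 755 to 3164 ± 276 normalized reads in siNT cells (-1.01, SE 0.14, adjusted p = 3.6e-05) and gave -1.37 in siMLK4 cells. MVP, the major vault protein, fell by 0.92 and 1.10. ABCB8, a mitochondrial transporter, rose by 0.44 and 0.53. Knock-down called 1 transporter, where 5.65% of all genes were called with vehicle and 5.58% with doxorubicin. This was ABCC3 (MRP3), which was lower in siMLK4 cells with vehicle (-1.16, SE 0.12, adjusted p = 1.1e-05) and with doxorubicin (-1.16, adjusted p = 1.4e-05), with 271 ± 46.1 against 666 ± 6.49 normalized reads with vehicle. At an adjusted p under 0.05, ABCC5 (0.62), MVP (0.62) and ABCC6 (0.56) were higher with vehicle, and MVP (0.43) and ABCC6 (0.44) with doxorubicin. Of all genes, 25.8% and 24.8% passed there in either direction. The list medians upon doxorubicin were 0.16 and -0.01, and ABCC2 and MVP were the members of this list that fell, as ABCC1 and ABCG2 did. ABCB4 and SLC22A16 of this list were not analysed here.

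Of 11 other reductases, 2 rose and 4 fell in siNT cells, and 3 rose and 6 fell in siMLK4 cells, beside 57.3% and 57.9% of all genes passing. The siNT share was close to that background. XDH, xanthine dehydrogenase, which can also reduce doxorubicin by a single electron, fell from 3525 ± 419.6 to 986 ± 128 normalized reads in siNT cells (-1.78, SE 0.13, adjusted p = 1.5e-07) and gave -1.80 in siMLK4 cells, and was lower after knock-down with vehicle (-0.77) and with doxorubicin (-0.78). AKR1C2 fell by 1.30 and 1.59 and AKR1C3 by 0.83 and 1.16, while CBR4, a mitochondrial carbonyl reductase, rose by 0.76 and 0.61. AKR1C1 and AKR1C2 are near-identical copies, and how reads were split between them is uncertain. NQO1, a quinone reductase, was lower in siMLK4 than siNT cells with doxorubicin (-1.24, SE 0.15, adjusted p = 5e-05) and with vehicle (-0.54, adjusted p = 0.014). The list medians upon doxorubicin were -0.30 and -0.51. After knock-down with vehicle 3 of the 11 were higher at an adjusted p under 0.05, AKR1B10 (0.56), AKR1C2 (0.42) and AKR1C3 (0.49), and 2 lower, XDH and NQO1, where 25.8% of all genes passed. With doxorubicin 0 were higher and 3 lower, XDH, NQO1 and AKR1C1 (-0.47, adjusted p = 0.02), where 24.8% did. CBR3 and CBR4 thus rose upon doxorubicin where CBR1 and the AKR1C genes fell. Of the other listed genes, POR rose by limma in siNT (0.39, adjusted p = 0.0051) and siMLK4 cells (0.48, adjusted p = 0.0012). AKR1B1 rose in siMLK4 cells only (0.54, adjusted p = 0.0041), where AKR1B10 fell (-0.51, adjusted p = 0.026). NQO1 gave 0.17 (adjusted p = 0.34) in siNT cells and fell in siMLK4 cells (-0.53, adjusted p = 0.0065). Its interaction was -0.70 (adjusted p = 0.11).

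**Figure D3:**
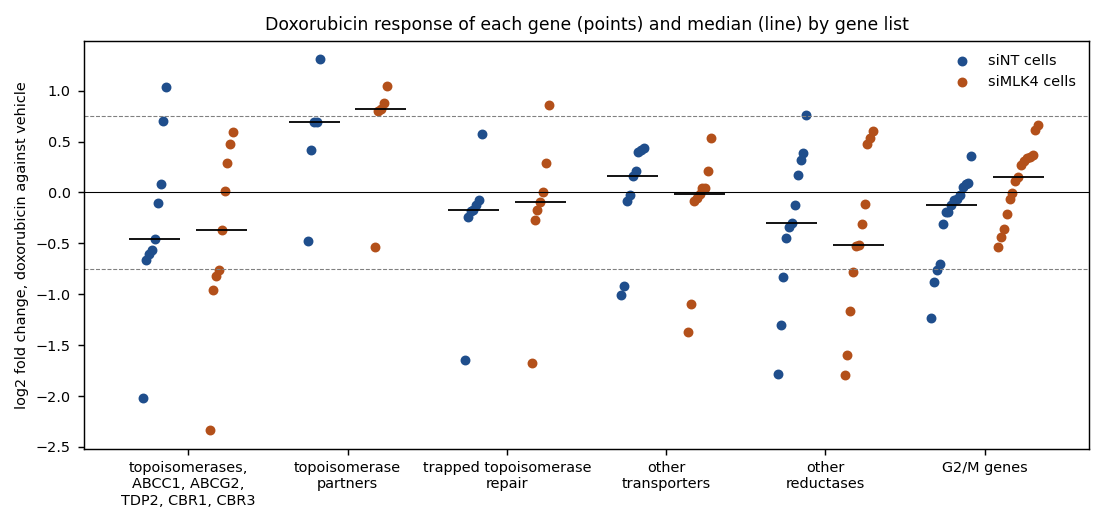
Log2 fold change upon doxorubicin (vertical axis) of each gene (points) in siNT cells (blue) and siMLK4 cells (orange), for the 9 genes described above and 5 further lists (5, 7, 9, 11 and 15 genes). Black lines are medians and dashed lines mark 0.75 in either direction. The partner genes have medians of 0.69 and 0.82, and the lowest point of each repair column is NBN at -1.65 and -1.68.

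TOP2A was set beside 15 genes of the late cell cycle. Upon doxorubicin, 1 of these rose and 5 fell in siNT cells, and 5 rose and 3 fell in siMLK4 cells, where 57.3% and 57.9% of all genes passed, with medians of -0.12 and 0.16. One of the 5 that rose, NUSAP1 (adjusted p = 0.044), rests on 5 to 8 reads in the siMLK4 vehicle and 14 to 22 in the siMLK4 doxorubicin libraries. Called in siNT cells were 3 of the 15, all lower: the kinase gene PLK1 (-1.23, SE 0.11, adjusted p = 5.9e-07), the cyclin A gene CCNA2 (-0.88) and the cyclin B gene CCNB1 (-0.76). Of all genes, 22.7% were called in siNT cells, 10.6% as lower. TOP2A was at 0.08 there and at 0.32 with library totals, where the median of all genes was 0.18, and did not fall under either scaling. The 15 genes are given with the authors' size factors only. In siMLK4 cells none of the 15 was called, where 23.2% of all genes were. Between siMLK4 and siNT cells with doxorubicin 7 of 15 were higher and none lower, where 12.7% of all genes passed as higher and 12.1% as lower. KIF20A, a mitotic kinesin, was called (0.80, SE 0.15, adjusted p = 0.0019), where 5.58% of all genes were. TOP2A, at 0.38, lay inside the range of the 15 genes, 0.05 (CCNA2) to 0.80 (KIF20A), whose median was 0.33 beside 0.023 over all genes. With vehicle none of the 15 passed by limma, where 25.8% of all genes did, and the range was -0.29 to 0.30. PLK1 was the 1 gene of the 15 with an interaction at an adjusted p under 0.05 (0.87, SE 0.15, adjusted p = 0.012), where 1.2% of all genes passed. These levels move with the share of dividing cells, whose part in the TOP2A values was not tested.

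**Figure D4:**
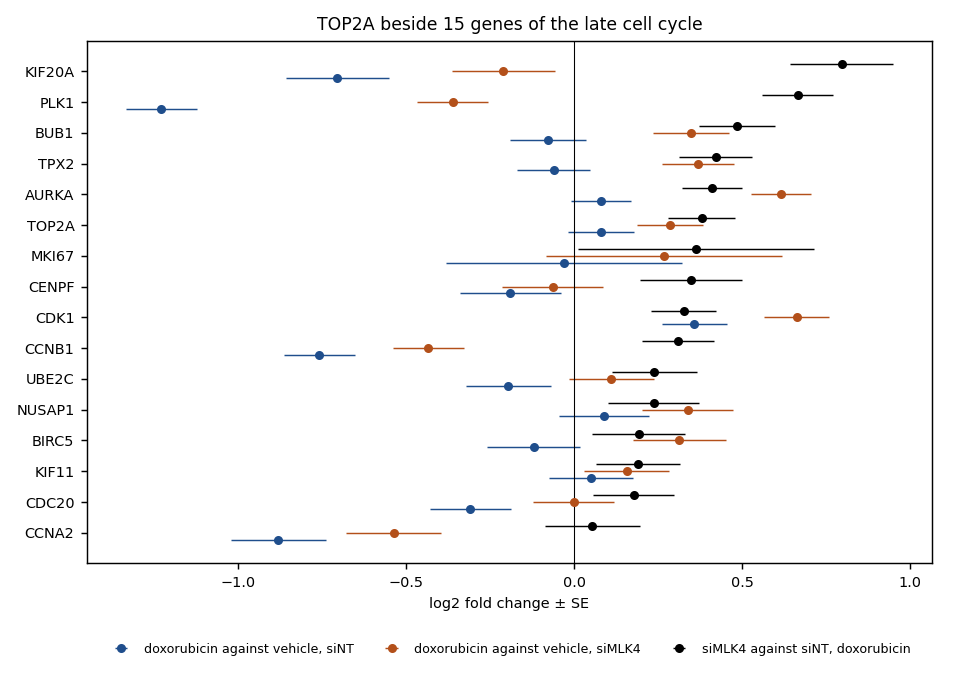
Log2 fold change with its SE from limma (horizontal axis) for TOP2A and 15 genes of the late cell cycle, upon doxorubicin in siNT cells (blue) and siMLK4 cells (orange) and for siMLK4 against siNT cells with doxorubicin (black), 3 libraries a group. Genes are ordered by the black points, all above 0, where TOP2A lies at 0.38.

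Both carbonyl reductase genes are overlapped by a gene on the opposite strand. CBR3-AS1, an antisense transcript of CBR3, had 27.0, 24.9 and 28.1 normalized reads in siNT vehicle and 207, 196 and 139 in siNT doxorubicin libraries. It had 54.1, 44.8 and 47.6 in siMLK4 vehicle and 228, 264 and 167 in siMLK4 doxorubicin libraries. CBR3-AS1 rose by 1.70 on the log2 scale in siNT cells (SE 0.15, adjusted p = 6.3e-07) and by 1.49 in siMLK4 cells (adjusted p = 2e-06), in the same direction as CBR3. SETD4, a methyltransferase gene that overlaps CBR1, fell by 0.47 (SE 0.10, adjusted p = 0.0017) and by 0.56 (adjusted p = 0.00042), in the same direction as CBR1. The methods state that reads were counted by strand, and how completely the strands were kept apart was not tested.

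**Figure D5:**
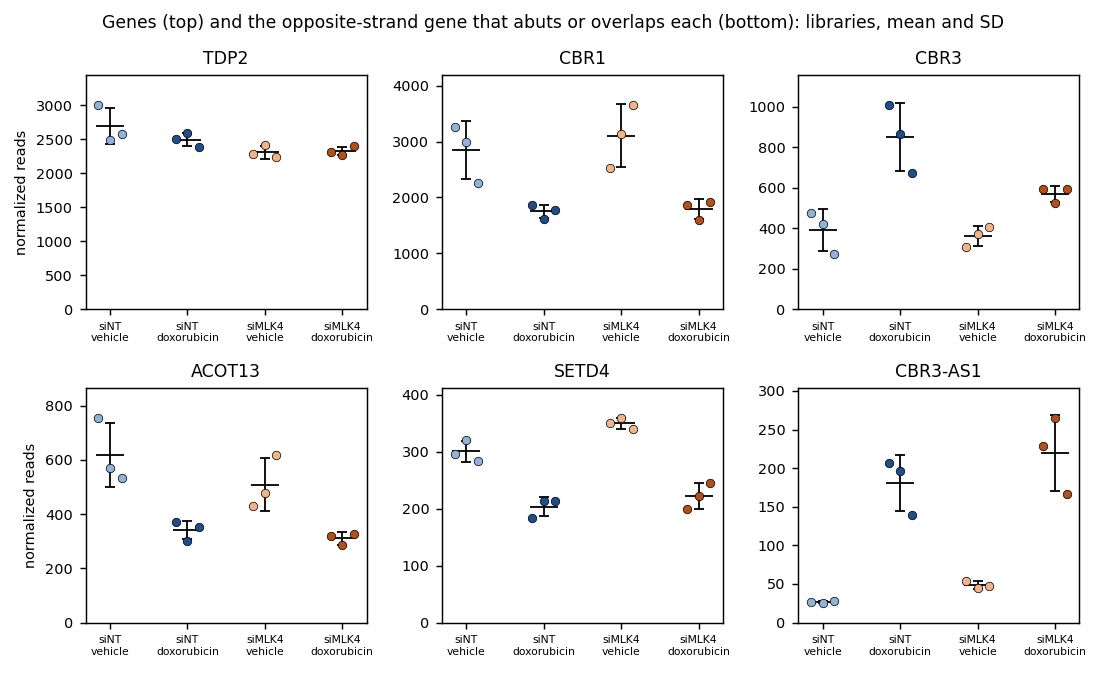
Normalized reads (vertical axes, from 0) of TDP2, CBR1 and CBR3 (top) and of the gene on the opposite strand that starts beside TDP2 or overlaps CBR1 and CBR3 (bottom) in 12 libraries. Points are libraries, long bars means and error bars the SD (n = 3). ACOT13 falls from 534 to 753 with siNT vehicle to 302 to 369 with siNT doxorubicin, while the TDP2 libraries overlap.

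For each gene called at least once, the 3 protein-coding genes whose centred log2 values differed least from its own over the 12 libraries were sought among 13610. KIF13A, NFX1 and CNNM1 were nearest to TOP2B, with root mean square differences of 0.08 to 0.09 where the spread of TOP2B itself was 0.40. LPAR3 and HKDC1 were among the nearest to TOP1MT (both 0.18, own spread 1.11). For ABCG2 these were CDC42SE1, NELFCD and PCYT1B (0.08 to 0.12, own spread 0.40), for CBR1 THAP3, PEX14 and HDAC7 (0.08 to 0.09, own spread 0.40), and for CBR3 C1orf122, ACAA1 and UTP3 (0.14 to 0.15, own spread 0.49). None of the 9 genes was among the 3 nearest of another.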

How the data were processed

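HCC1806 mRNA was selected by poly(A), and 12 libraries in 4 groups of 3, set by the sample labels, were analysed with none left out. The authors used Trimmomatic 0.39 for trimming and HISAT2 for mapping, removed optical duplicates, counted by strand with HTSeq 0.6.0 and normalized with DESeq2 1.26.0, as the methods and the submitters' processing notes state. The notes name hg19 and the methods GRCh38, and coordinates here are from GRCh38 and GENCODE release 44. The deposited values are on a log2 scale, read from the values as a variance-stabilizing transformation. Its inverse gave whole reads (tolerance 0.05) in every library (100.0% of values) and size factors of 0.852 to 1.199. The table had been filtered by a rule not given in the sources used here, and its lowest gene has a mean of 10.67 normalized reads in its highest group.

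The transformed values of all 12 libraries were fitted in 1 model with limma 3.58.1 (variance trend) in R 4.3.3, with Benjamini-Hochberg adjustment over 17013 genes, after the code was tested on simulated data. A log2 fold change over 0.75 with an adjusted p under 0.01 was a call. The genes, lists, tests and alternatives were chosen with earlier results of these data known. Named are all 9 genes, the siRNA target, the 2 most changed called genes of each list and comparison, the nearest measured genes on each side and the 3 most alike genes, except for 2 genes that are not reported here. Other list genes, such as those that share a complex or family with a named gene, were added after their values were seen. The alternatives were other scalings (TMM, library totals), at least 10 reads in every library, log2(normalized reads + 1), limma-voom, no variance trend, only the groups compared, a replicate block, other thresholds, another gene length and leaving out each library.

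Equally numbered libraries deviated together between vehicle and doxorubicin in siNT cells (correlations 0.46, 0.11 and 0.20) and between both siRNAs with doxorubicin (0.19, 0.52 and 0.56). The other comparisons gave -0.08, 0.18 and 0.34 upon doxorubicin in siMLK4 cells and -0.72, 0.32 and -0.52 for knock-down with vehicle. The pairing is read from the values alone. Promoters are from RefSeq, whose table held 6 of the 9 genes and not TOP1MT, ABCC1 or CBR3. The siRNA sequences are from the supplementary tables of the paper.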

Additional observations from a re-analysis of the deposited data

How the results depend on the processing

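Of 891 alternative values for 45 results of the 9 genes, 867 kept their direction and their call or lack of one, 5 lost a call, 4 gained 1 and 15 changed sign, all of the last without a call. An adjusted p under 0.05 was lost by 32 of them (23 leaving out a library) and gained by 2, both TOP2A with library totals. Besides those in the report, TOP2A upon doxorubicin in siMLK4 cells was lost with only the groups compared (0.062), and for knock-down with doxorubicin TOP2B with no variance trend (0.051) and CBR3 with log2(normalized reads + 1) (0.053). With scaling by library totals the median log2 fold change of all genes was 0.18 and 0.16 upon doxorubicin in siNT and siMLK4 cells and 0.11 for knock-down with vehicle (0.0046, 0.018 and 0.012 before), and changes under it are to be read relative to these. Under it the log2 fold change of TDP2 upon doxorubicin in siNT cells was 0.13, and for knock-down with vehicle TOP2B was at 0.0071 and CBR3 at 0.043. Leaving out a library, TDP2 ran from -0.011 to 0.045 upon doxorubicin in siMLK4 cells, knock-down with vehicle gave -0.072 to 0.12 for ABCC1, -0.035 to 0.073 for ABCG2, -0.026 to 0.26 for CBR1 and -0.29 to 0.058 for CBR3, and CBR1 ran from -0.025 to 0.11 for knock-down with doxorubicin and from -0.23 to 0.054 for the interaction. At an adjusted p under 0.05 alone, 9745, 9858, 4381, 4219 and 204 of all genes passed (drug in siNT, drug in siMLK4, knock-down with vehicle, knock-down with doxorubicin, interaction) and 7, 8, 1, 6 and 0 of the 9 genes. At an adjusted p under 0.05 with a fold threshold of 1 there were 2080, 2169, 389, 359 and 87 of all genes, and of the 9 genes 2 upon doxorubicin in siNT cells (CBR3 and TOP1MT), 1 in siMLK4 cells (TOP1MT) and 0 in the other comparisons. Knock-down with vehicle called 1613 genes with log2(normalized reads + 1), 1483 with limma-voom and 611 with only the groups compared, against 961. Knock-down with doxorubicin called 1466 with limma-voom, against 950. The interaction called 29 with limma-voom, against 47, and 0 to 37 without 1 library, with 0 without siMLK4 doxorubicin replicate 1. The cause of these differences was not tested. The replicate block gave 3854 and 3937 calls upon doxorubicin, 951 and 945 for knock-down and 40 for the interaction, and besides TOP2B (above) it moved no other of the 9 genes across an adjusted p of 0.05. For CBR3 upon doxorubicin in siMLK4 cells the blocked adjusted p was 0.012. Estimates for single genes rest on 3 libraries a group, and proteins, drug uptake and enzyme activity were not measured here.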

Other observations

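Nearest measured genes on the chromosome were read beside the 9 genes. NGLY1, a deglycosylating enzyme gene 54035 bases from TOP2B on the same strand, had 661 ± 48.2 normalized reads in siNT vehicle and 363 ± 36.0 in siNT doxorubicin libraries (SD, n = 3). It fell by 0.78 on the log2 scale in siNT cells (adjusted p = 4.3e-05) and by 1.02 in siMLK4 cells (adjusted p = 4.6e-06), in the direction of TOP2B. RARB, a retinoic acid receptor gene that ends 46 bases from the end of TOP2B on the opposite strand, passed no test upon doxorubicin (0.23 and -0.27) and was higher in siMLK4 cells with vehicle (0.65, adjusted p = 0.0021). ZNF696, beside TOP1MT on the opposite strand, fell by 1.28 in siNT cells (adjusted p = 1.1e-06) and by 0.61 in siMLK4 cells (adjusted p = 0.00061), and its interaction was 0.68 (adjusted p = 0.067). On the other side of TOP1MT, RHPN1-AS1 rose by 0.72 in siNT cells (adjusted p = 0.0013) and gave 0.099 in siMLK4 cells (adjusted p = 0.6). It was higher in siMLK4 than siNT cells with vehicle (0.70, adjusted p = 0.0049). Beside TOP1, PLCG1 gave 0.17 and 0.34 upon doxorubicin in siNT and siMLK4 cells. PLCG1-AS1, which overlaps TOP1 on the opposite strand, rose by 0.48 (adjusted p = 0.036) and 0.65 (adjusted p = 0.0078), in the direction of TOP1.

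The neighbours of the transporters were also read. PPM1K, a phosphatase gene 25992 bases from ABCG2, rose by 0.61 in siNT cells (adjusted p = 0.00072) and by 1.00 in siMLK4 cells (adjusted p = 1.2e-05), where ABCG2 fell, and PKD2 on its other side gave 0.48 (adjusted p = 0.03) and 0.04 (adjusted p = 0.87). ABCC6, a pump gene 6308 bases from ABCC1 on the opposite strand, had 2.25 to 7.05 normalized reads in siNT vehicle and 11.96 to 22.7 in siMLK4 vehicle libraries and passed no test upon doxorubicin (0.16 and 0.04). CEP20, on the other side of ABCC1, fell by 0.51 and 0.43. IGFBP4, beside TOP2A, fell by 1.05 in siNT cells (adjusted p = 0.00082) and by 0.61 in siMLK4 cells (adjusted p = 0.025), and GJD3-AS1 passed no test (0.27 and -0.06). KIAA0319, which follows TDP2 on the same strand, fell by 0.90 and 1.05. The nearest genes of CBR1 and CBR3 that do not overlap them, RUNX1, MEMO1P1 and DOP1B, gave log2 fold changes of -0.32 to 0.35 upon doxorubicin, of which MEMO1P1 in siMLK4 cells passed (-0.32, adjusted p = 0.022).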
